A study of Mus musculus with 6 samples.

Results

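The 35 genes described here encode lysosomal enzymes and membrane proteins, the transcription factors TFEB and TFE3, and proteins of autophagy. They were taken by symbol from a list of genes of the pathway. All 35 were found among the 23183 genes measured by RNA sequencing in ILC2 (group 2 innate lymphoid cells) from mouse lung. ILC2 lack antigen receptors and release type 2 cytokines such as IL-5 and IL-13. The cells were wild type (WT) primary cultures kept for 24 h with IL-2, IL-7 and IL-33, each at 10 ng/ml. To these cytokines was added either an IgG2b isotype control antibody (3 libraries) or DTA-1, an agonist antibody against GITR, a costimulatory receptor of the TNF receptor family (3 libraries). Every culture of both groups received the 3 cytokines, so the comparison addresses what GITR engagement adds to activated cells. The labels state neither the age and sex of the mice nor whether each library stands for its own animal or culture, so the p-values cover only how these samples vary, and that variation may be technical. Groups followed the titles. In replicates 2 and 3 the tags read IgG3b and IgG4b for the isotype and DTA-2 and DTA-3 for the agonist, unlike the titles.

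The lysosome is an acidic organelle in which cathepsins and other hydrolases break down proteins, lipids, glycans and glycogen. A proton pump in its membrane keeps it acidic, and membrane glycoproteins such as LAMP1 line it. Autophagy delivers cytoplasm to it: the ULK1 kinase and the Beclin 1 lipid kinase complex start a membrane, a ubiquitin-like conjugation system built on ATG5, ATG7 and ATG12 attaches proteins of the ATG8 family (LC3 and GABARAP) to that membrane, and receptors such as p62 load cargo. TFEB and TFE3 bind E-box elements with the core CACGTG in promoters of lysosomal genes, and mTORC1, the growth kinase on the lysosomal surface, keeps both factors in the cytoplasm when nutrients are plentiful.

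Promoter sequence from RefSeq (GRCm38.p6, the assembly of mm10) was given for 30 of the 35 genes, as 250 bases before and 50 bases after a start site. The palindrome CACGTG occurred in 10 of these 30 genes, namely Ctsa, Ctsd, Ctsl, Lgmn, Gaa, Gla, Lamp1, Mcoln1, Atg5 and Atg7. It occurred in 7.15% of the 32851 promoter windows of the genome and in 12.4% of the 8076 tested genes with a promoter. The longer form TCACGTG, searched on both strands and containing the shorter one, occurred in 8 of the 30 genes and 7.47% of tested genes with a promoter. The 8-base form TCACGTGA occurred in 4 of the 30 and 2.5% of tested genes with a promoter. The 10-base form, with a G before and a C after those 8 bases, occurred in 0 of the 30 and 0.953% of tested genes with a promoter. A match describes these letters and not a bound site. The windows around TCACGTGA in the 4 genes that hold it are shown because this is the longest form found among the 30, with the CACGTG core in capitals and each read along the gene's strand:
Ctsa, chr2:164833751-164833776, plus strand: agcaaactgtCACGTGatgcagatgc
Ctsa, chr2:164833768-164833793, plus strand: tgcagatgctCACGTGaccagagcta
Ctsd, chr7:142387910-142387935, minus strand: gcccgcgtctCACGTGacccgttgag
Gla, chrX:134601217-134601242, minus strand: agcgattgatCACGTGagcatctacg
Gla, chrX:134601184-134601209, minus strand: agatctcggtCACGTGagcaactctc
Mcoln1, chr8:3500464-3500489, plus strand: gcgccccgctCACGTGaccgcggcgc

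Lamp1 held the core 4 times within the 71 bases before its start site, and this stretch is shown because it has the most copies of any of the 30 genes, again with the core in capitals:
Lamp1, chr8:13159090-13159160, plus strand: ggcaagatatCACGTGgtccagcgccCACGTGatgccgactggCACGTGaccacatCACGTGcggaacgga

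The next stretches belong to the genes with the smallest unadjusted p among those with a promoter, whose values follow further on. Ctsz had no CACGTG in its promoter window, Tfe3 had none in either of its 2 windows, and Lgmn had 1 copy, in capitals, in the window of 1 of its 2 start sites and none in the other. The Tfe3 stretch stops where an annotated exon begins:
Ctsz, chr2:174439040-174439289, minus strand: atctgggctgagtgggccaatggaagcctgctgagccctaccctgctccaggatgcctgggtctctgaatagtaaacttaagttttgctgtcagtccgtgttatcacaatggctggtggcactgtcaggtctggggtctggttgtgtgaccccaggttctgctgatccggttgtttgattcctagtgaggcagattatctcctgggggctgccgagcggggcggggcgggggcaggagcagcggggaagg
Lgmn, chr12:102439093-102439342, minus strand: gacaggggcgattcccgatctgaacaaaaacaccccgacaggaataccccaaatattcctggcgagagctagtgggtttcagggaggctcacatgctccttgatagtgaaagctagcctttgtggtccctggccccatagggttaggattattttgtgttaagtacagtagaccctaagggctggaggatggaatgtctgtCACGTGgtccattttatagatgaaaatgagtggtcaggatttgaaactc
Tfe3, chrX:7762411-7762559, plus strand: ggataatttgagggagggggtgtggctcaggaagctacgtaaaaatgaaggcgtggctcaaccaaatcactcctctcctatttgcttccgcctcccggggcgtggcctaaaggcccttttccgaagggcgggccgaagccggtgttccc

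Values are given in FPKM, fragments scaled to transcript length and library size, which allows levels to be compared between genes. The libraries totalled 574195 to 606724 FPKM. Depth was estimated roughly from the most common low value times exon length, searched in a preset range. This gave 18700000 to 20500000 fragments each, so depth differed little by this estimate, which was not checked against read counts. At that depth, and with the median length of its coding transcripts (551 bases), Tfeb had an estimated 18 fragments in its lowest library. The counting error was 23.9%. Ctsd (2024 bases) had 9460, with a counting error of 1.03%. Depth itself was estimated with the combined exon length, 5669 bases for Tfeb and 2351 for Ctsd, so the fragments of Tfeb may be understated. All 10 listed ILC2 markers passed the filter of at least 1 FPKM in at least 3 libraries, and Il2ra, an interleukin 2 receptor chain gene, stood at 1075 FPKM or more in each library. Among the 10, Klrg1 (97.2 FPKM with the isotype, 34.1 FPKM with DTA-1) and Il1rl1 (253 and 182 FPKM) were lower at an unadjusted p under 0.05 and not after adjustment (limma). Macrophages are rich in lysosomes, but of 13 macrophage markers none passed the filter, and 8, among them Mrc1, Marco, Mertk and C1qa, were listed at 0 in every library. The summed level of that list lay between 0.127 and 0.269 FPKM with the isotype and between 0.121 and 0.251 FPKM with DTA-1, and Cd14 was its highest gene. Over all 8 lists of other cell types, 9 of 57 marker genes passed the filter: 4 of 8 for dendritic cells (Cd74 highest), 2 of 8 for epithelium and stroma (Pecam1 and Epcam), 1 of 8 for mast cells and basophils (Kit), 1 of 5 for B cells (Cd79b), 1 of 6 for T cells (Cd3g), and none for neutrophils (Csf3r) and NK cells (Prf1). Epcam, an epithelial adhesion gene, measured 3.81 ± 0.840 FPKM with the isotype and 1.52 ± 0.388 FPKM with DTA-1, without overlap (log2 difference -0.93 ± 0.18, limma adjusted p = 0.101). The summed T cell list was lower in each DTA-1 library (8.40 to 9.76 FPKM) than in each isotype library (10.6 to 11.7 FPKM). Most of that sum was Cd3g, at 9.67 ± 0.425 FPKM with the isotype and 8.01 ± 1.04 FPKM with DTA-1. Cd3g separated the groups, as did 10.5% of all tested genes on the lower side. Cd3e, below the filter, overlapped (0.750 and 0.715 FPKM). All 8 listed cell cycle genes were lower in every DTA-1 library than in every isotype library, as were 10.5% of all tested genes. Each of the 8 had an unadjusted limma p under 0.05, where 7.73% of all tested genes were lower at that level. Pcna was highest, with a limma adjusted p of 0.0817, the smallest of the 8. Summed levels were 962, 676 and 581 FPKM with the isotype against 426, 386 and 405 FPKM with DTA-1. Replication-dependent histone genes, listed as a sign of RNA quality (Hist1h1c highest), had a median log2 difference of -0.20 over 13 tested genes. Their level also depends on replication, so RNA quality and cell cycle cannot be told apart in this list. The summed levels of the histone genes were 56.5 to 84.2 FPKM with the isotype and 65.9 to 74.7 FPKM with DTA-1. They did not move together. Without overlap, 2 were higher (Hist1h1c, log2 difference 0.82, and Hist1h2bc) and 3 lower (Hist1h2ak, Hist1h3c and Hist1h4d), where 11.2% and 10.5% of all tested genes were. The part of these differences in the results below was not tested. In bulk libraries, fewer cells that express a gene and less RNA per cell cannot be told apart.

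The lysosome and autophagy genes spanned a wide range of levels. Of the 35 genes, 5 averaged over 100 FPKM (Ctsd, Sqstm1, Gabarap, Ctsz and Lamp1), 22 lay between 10 and 100 FPKM, 7 between 1 and 10 FPKM (Atg7, Mcoln1, Lipa, Ulk1, Ctsl, Gla and Tfeb), and Wipi1 lay below 1 FPKM. Their median stood at the 71.8th percentile of all tested genes by mean level, and 26 of 34 lay above the median of those genes. Together they held 0.258%, 0.336% and 0.359% of all FPKM in isotype replicates 1, 2 and 3 and 0.319%, 0.345% and 0.343% in DTA-1 replicates 1, 2 and 3. Isotype replicate 1 was thus the lowest library, while the others overlapped between groups.

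**Figure D1:**
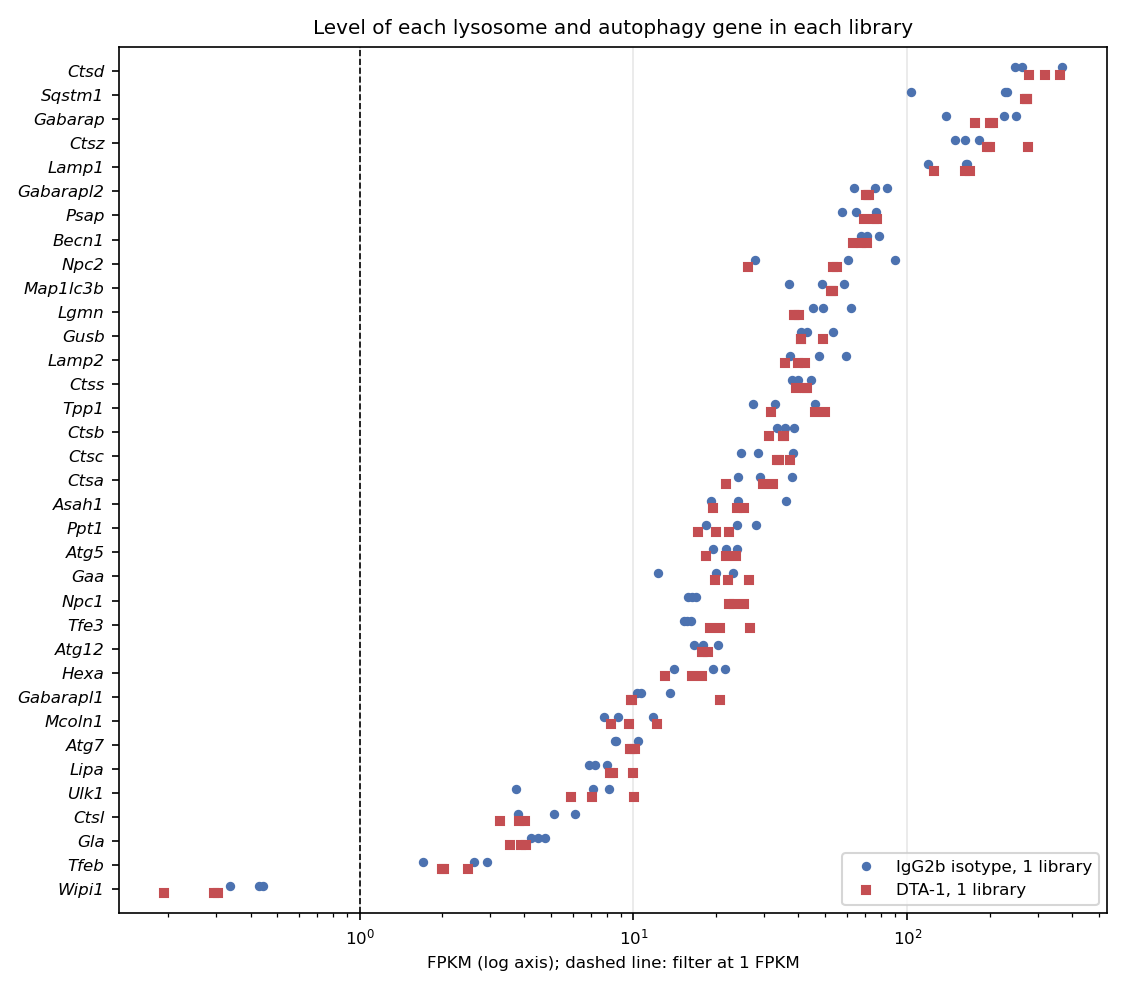
FPKM of each of the 35 genes (log axis) in the 3 isotype libraries (circles) and the 3 DTA-1 libraries (squares), ordered by mean level. Ctsd stood highest and Wipi1, left of the filter line at 1 FPKM, lowest, and the groups overlap for most genes.

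With DTA-1, none of the 34 tested genes passed the threshold over all 10501 tested genes (limma, Benjamini-Hochberg adjusted p under 0.05), where 0.0286% of all tested genes passed as higher and 0.00952% as lower. The smallest adjusted p was 0.119, for Npc1. With no adjustment, 3 genes had a p under 0.05 and were higher (Npc1, Tfe3 and Ctsz; 8.82% of 34 against 6.22% of all tested genes) and 1 was lower (Lgmn; 2.94% against 7.73%). The groups did not overlap for 5 higher genes (Npc1, Tfe3, Ctsz, Lipa and Sqstm1; 14.7% against 11.2% of all tested genes) and 2 lower genes (Lgmn and Gla; 5.88% against 10.5%). These shares lie near those of all genes. The median log2 difference of the 34 genes was 0.011, against 0.014 over all tested genes, with 17 above 0 and 17 below. With each library left out in turn, the median ran from -0.036 (without DTA-1 replicate 2) to 0.075 (without isotype replicate 3). The 95% interval of the difference lay within 1.5-fold in either direction for 19 of the 34 genes (55.9%, against 65.7% of all tested genes) and within 2-fold for 32 (94.1% against 92.2%). The exceptions to the latter were Npc2 and Sqstm1. The small counts moved with single libraries. The count of lower genes at an unadjusted p under 0.05 was 6 without isotype replicate 1 (7.27% of all tested genes). Leaving out isotype replicate 3 gave 0 (8.58%), as did leaving out DTA-1 replicate 1 (6.07%) and DTA-1 replicate 3 (6.14%). Leaving out isotype replicate 2 gave 5 higher genes (6.61% of all tested genes). The count without overlap was 10 lower without isotype replicate 1, 4 lower when isotype replicate 2 or DTA-1 replicate 1 was left out, and 9 higher without isotype replicate 3, where groups of 3 and 2 separate more easily (14.8%, 16.0%, 15.1% and 17.8% of all tested genes).

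**Figure D2:**
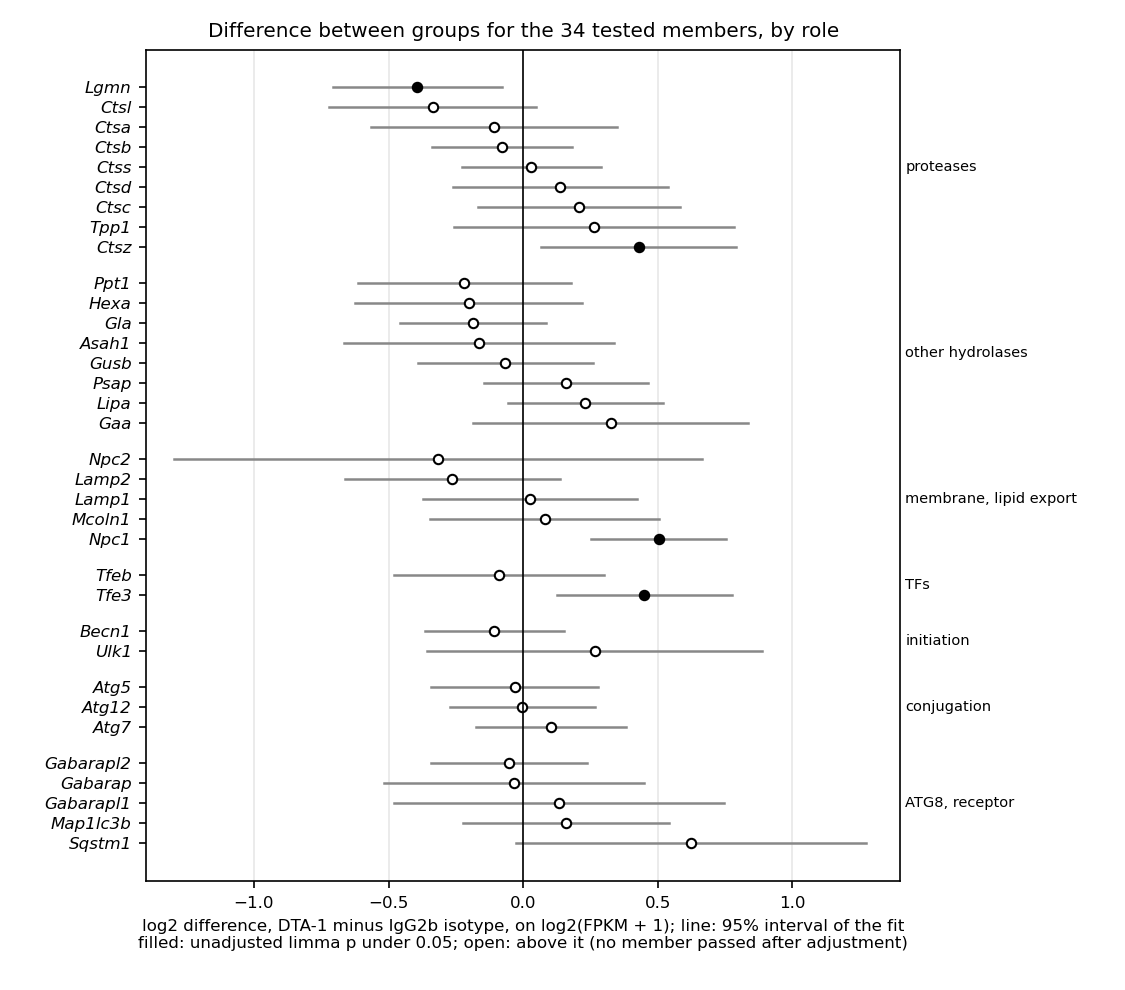
Log2 difference (DTA-1 minus isotype, on log2(FPKM + 1)) of the 34 tested genes by role, with the 95% interval of the limma fit as a line. Filled points mark an unadjusted p under 0.05: Npc1, Tfe3 and Ctsz on the higher side and Lgmn on the lower.

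The protease genes were led by Ctsd, which encodes the aspartyl protease cathepsin D. Ctsd measured 247, 262 and 367 FPKM in isotype replicates 1, 2 and 3 and 277, 360.1 and 319 FPKM in DTA-1 replicates 1, 2 and 3. The groups overlapped, and the log2 difference was 0.14 ± 0.17 (SE), with a limma adjusted p of 0.798. With single libraries left out it ran from 0.030 (isotype replicate 1) to 0.31 (isotype replicate 3). Differences here and below are on the log2(FPKM + 1) scale, which understates the change of low genes. Ctsz, which encodes the carboxypeptidase cathepsin Z and lies on chromosome 2 at 174427493 to 174439039 of mm10, was the next most abundant protease gene. It measured 149, 182 and 162 FPKM in isotype replicates 1, 2 and 3 and 275, 201 and 195 FPKM in DTA-1 replicates 1, 2 and 3. Each DTA-1 library lay above each isotype library, and DTA-1 replicate 1 stood above the other DTA-1 libraries. The means were 164 ± 16.7 FPKM with the isotype and 224 ± 44.8 FPKM with DTA-1, and the log2 difference was 0.43 ± 0.16 (SE), with a limma adjusted p of 0.277. Without DTA-1 replicate 1 it was 0.27.

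Lgmn, on chromosome 12 at 102394084 to 102439813, encodes legumain, an asparagine-specific protease that also activates cathepsins. It measured 45.3, 49.3 and 62.1 FPKM in isotype replicates 1, 2 and 3 and 38.9, 40.2 and 38.5 FPKM in DTA-1 replicates 1, 2 and 3. The DTA-1 libraries lay close together below each isotype library, among which replicate 3 was highest. The log2 difference was -0.39 ± 0.14 (SE), with a limma adjusted p of 0.252. With single libraries left out it ran from -0.49 (isotype replicate 1) to -0.26 (isotype replicate 3). The Lgmn stretch with the CACGTG core printed above belongs to 1 of its 2 start sites and lies within the annotated gene. The window of the other start site, next to the outer end of the annotated gene, had none.

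The other protease genes among the 35 overlapped between groups. Ctss, the cathepsin of antigen-presenting cells that cleaves the MHC class II invariant chain, had means of 40.8 ± 3.21 FPKM with the isotype and 41.6 ± 2.13 FPKM with DTA-1, and Ctsb, a cysteine cathepsin, 35.9 ± 2.51 FPKM with the isotype and 33.97 ± 2.28 FPKM with DTA-1. Ctsc, whose product activates serine proteases of granules, had means of 30.5 ± 7.04 FPKM with the isotype and 34.9 ± 2.06 FPKM with DTA-1, and Ctsa, the protective protein of neuraminidase and galactosidase, 30.3 ± 7.03 FPKM with the isotype and 27.98 ± 5.46 FPKM with DTA-1. Tpp1, a tripeptidyl peptidase gene, had means of 35.5 ± 9.62 FPKM with the isotype and 42.6 ± 9.59 FPKM with DTA-1. These 5 genes had log2 differences from -0.11 to 0.26, with overlapping groups. Ctsl, which encodes cathepsin L, was the protease gene with the lowest level. It measured 3.79, 6.099 and 5.11 FPKM in isotype replicates 1, 2 and 3 and 3.26, 3.82 and 4.03 FPKM in DTA-1 replicates 1, 2 and 3. Its values overlapped in 1 place, isotype replicate 1 lying below DTA-1 replicates 2 and 3, and the log2 difference was -0.34 ± 0.17 (SE), with a limma adjusted p of 0.427. It was -0.21 without isotype replicate 2.

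Genes of other hydrolases and their activators had a median log2 difference of -0.12 over 8 genes, none at an unadjusted p under 0.05. The median was -0.0032 without isotype replicate 2, -0.051 without isotype replicate 1 and -0.069 without DTA-1 replicate 1. Psap, which encodes the precursor of the saposins that present sphingolipids to their enzymes, was the most abundant. It measured 57.6, 64.99 and 77.02 FPKM in isotype replicates 1, 2 and 3 and 77.2, 75.6 and 69.2 FPKM in DTA-1 replicates 1, 2 and 3. Its log2 difference was 0.16 ± 0.13 (SE), with a limma adjusted p of 0.669, with 0.062 when isotype replicate 1 was left out and 0.27 when isotype replicate 3 was. Lipa, the gene of lysosomal acid lipase, which frees cholesterol and fatty acids from lipoprotein lipids, measured 8.02, 7.26 and 6.897 FPKM in isotype replicates 1, 2 and 3 and 9.92, 8.23 and 8.44 FPKM in DTA-1 replicates 1, 2 and 3. The groups did not overlap, by a margin of isotype replicate 1 against DTA-1 replicate 2, and the log2 difference was 0.23 ± 0.13 (SE), with a limma adjusted p of 0.471. Gla, the gene of alpha-galactosidase A, measured 4.77, 4.46 and 4.24 FPKM in isotype replicates 1, 2 and 3 and 3.55, 3.88 and 4.06 FPKM in DTA-1 replicates 1, 2 and 3. It was lower in each DTA-1 library, and the log2 difference was -0.19 ± 0.12 (SE), with a limma adjusted p of 0.548.

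The remaining hydrolase genes overlapped between groups. Gusb, beta-glucuronidase, had means of 45.8 ± 6.69 FPKM with the isotype and 43.6 ± 4.84 FPKM with DTA-1. Asah1, acid ceramidase, had means of 26.4 ± 8.67 FPKM with the isotype and 22.9 ± 2.97 FPKM with DTA-1, and Ppt1, which removes palmitate from proteins, 23.5 ± 4.91 FPKM with the isotype and 19.8 ± 2.59 FPKM with DTA-1. Hexa, the alpha chain of beta-hexosaminidase, had means of 18.4 ± 3.94 FPKM with the isotype and 15.7 ± 2.47 FPKM with DTA-1, and Gaa, the acid glucosidase that degrades glycogen, 18.4 ± 5.57 FPKM with the isotype and 22.8 ± 3.34 FPKM with DTA-1. Their log2 differences ran from -0.22 for Ppt1 to 0.32 for Gaa, with SEs of 0.14 to 0.22. Gaa stood low in isotype replicate 2 alone, at 12.3 FPKM against 19.8 FPKM or more elsewhere, and Asah1 stood high there, at 36.0 FPKM against 25.2 FPKM or less.

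Among membrane proteins and lipid exporters, Npc1 differed most. Npc1 encodes the membrane protein that moves cholesterol out of the lysosome. It measured 16.4, 15.8 and 16.9 FPKM in isotype replicates 1, 2 and 3 and 23.2, 25.3 and 22.3 FPKM in DTA-1 replicates 1, 2 and 3. The libraries of each group lay close together and the groups were well apart, with means of 16.3 ± 0.541 FPKM with the isotype and 23.6 ± 1.51 FPKM with DTA-1. The log2 difference was 0.50 ± 0.11 (SE), with a limma adjusted p of 0.119, and its 95% interval ran from 0.25 to 0.75. It was 0.45 to 0.54 with each library left out in turn, and it ranked 138 by p among the 10501 tested genes.

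Npc2, the soluble partner that hands cholesterol to NPC1, had the largest SE of the 34 tested genes. It measured 27.8, 89.8 and 60.6 FPKM in isotype replicates 1, 2 and 3 and 26.2, 53.7 and 55.2 FPKM in DTA-1 replicates 1, 2 and 3. Replicate 1 was the lowest library of each group, and the groups overlapped. The log2 difference was -0.32 ± 0.43 (SE), with a limma adjusted p of 0.809. Its sign changed when isotype replicate 2 was left out (0.053) and when DTA-1 replicate 1 was (0.026), and it was -0.77 without isotype replicate 1. Lamp1, the most abundant membrane protein gene, measured 119, 165 and 164 FPKM in isotype replicates 1, 2 and 3 and 125, 169 and 162 FPKM in DTA-1 replicates 1, 2 and 3. Replicate 1 was lowest in both groups. Like-numbered libraries had near values, though the labels do not pair them. The log2 difference of Lamp1 was 0.025 ± 0.17 (SE), with a limma adjusted p of 0.965. With single libraries left out it ran from -0.13 (isotype replicate 1) to 0.16 (DTA-1 replicate 1). Lamp2, which encodes the receptor of chaperone-mediated autophagy among other forms, had means of 48.1 ± 11.3 FPKM with the isotype and 39.3 ± 3.29 FPKM with DTA-1, and Mcoln1, the calcium channel of the lysosomal membrane, 9.47 ± 2.08 FPKM with the isotype and 10.04 ± 1.96 FPKM with DTA-1. Neither separated the groups.

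**Figure D3:**
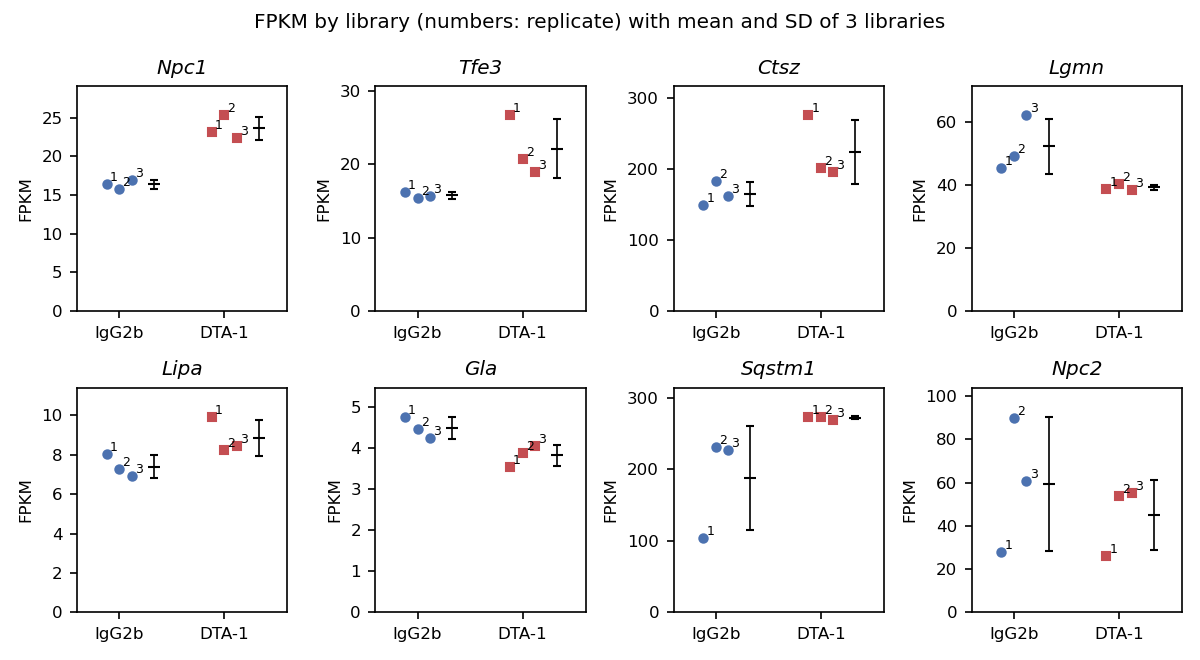
FPKM of 8 genes in each library (numbers are replicates), with the mean and SD of each group beside the points. Npc1, Tfe3, Ctsz and Lipa lie higher and Lgmn and Gla lower in every DTA-1 library, isotype replicate 1 stands apart for Sqstm1, and both libraries numbered 1 are low for Npc2.

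Of the transcription factor genes, Tfe3 was the more abundant in every library, at 5.58 to 10.7 times the level of Tfeb in FPKM. Tfe3, on chromosome X at 7762560 to 7775202, measured 16.3, 15.3 and 15.6 FPKM in isotype replicates 1, 2 and 3 and 26.6, 20.7 and 18.97 FPKM in DTA-1 replicates 1, 2 and 3. The isotype libraries lay close together and each DTA-1 library lay above them, with DTA-1 replicate 1 highest. The means were 15.8 ± 0.469 FPKM with the isotype and 22.1 ± 4.02 FPKM with DTA-1, and the log2 difference was 0.45 ± 0.14 (SE), with a limma adjusted p of 0.214. It was 0.31 without DTA-1 replicate 1. Tfeb measured 2.92, 1.704 and 2.61 FPKM in isotype replicates 1, 2 and 3 and 2.497, 1.99 and 2.03 FPKM in DTA-1 replicates 1, 2 and 3. The groups overlapped, and the log2 difference was -0.090 ± 0.17 (SE), with a limma adjusted p of 0.868. With single libraries left out it ran from -0.25 (isotype replicate 2) to 0.019 (isotype replicate 1). A test of the 2 factors against each other was not made.

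The 10 genes with the core in at least 1 promoter window had a median log2 difference of -0.0032, from -0.39 for Lgmn to 0.32 for Gaa, with 5 above 0. The 19 tested genes with a promoter but without the core had a median of 0.13, from -0.32 for Npc2 to 0.62 for Sqstm1, with 11 above 0. This split is a description and was not tested.

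None of the 5 tested genes of autophagy initiation and conjugation separated the groups. Becn1, which encodes Beclin 1 of the lipid kinase complex, was the most abundant. It measured 67.8, 79.04 and 71.4 FPKM in isotype replicates 1, 2 and 3 and 67.6, 63.3 and 71.3 FPKM in DTA-1 replicates 1, 2 and 3. The groups overlapped, and the log2 difference was -0.11 ± 0.11 (SE), with a limma adjusted p of 0.749. It was -0.046 without isotype replicate 2 and -0.063 without DTA-1 replicate 2. Ulk1, the initiating kinase gene, measured 8.17, 3.71 and 7.12 FPKM in isotype replicates 1, 2 and 3 and 10.02, 7.04 and 5.89 FPKM in DTA-1 replicates 1, 2 and 3. Isotype replicate 2 was lowest and DTA-1 replicate 1 highest, and the log2 difference was 0.27 ± 0.27 (SE), with a limma adjusted p of 0.739. It was 0.078 without DTA-1 replicate 1 and -0.025 without isotype replicate 2. Wipi1, whose product binds the lipid made by the Beclin 1 complex, measured 0.443, 0.336 and 0.429 FPKM in isotype replicates 1, 2 and 3 and 0.294, 0.305 and 0.193 FPKM in DTA-1 replicates 1, 2 and 3. Each DTA-1 value lay below each isotype value. All 6 were below the filter of 1 FPKM, so Wipi1 was not tested. An estimated 8 to 17 fragments per library stand behind it at a median coding transcript length of 2050 bases. Its combined exons span 4410 bases.

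Atg5, part of the complex that attaches ATG8 proteins, was the most abundant conjugation gene. Atg5 measured 19.5, 23.8 and 21.9 FPKM in isotype replicates 1, 2 and 3 and 18.4, 21.8 and 23.6 FPKM in DTA-1 replicates 1, 2 and 3. Atg12, whose product is joined to ATG5, had means of 18.3 ± 1.93 FPKM with the isotype and 18.2 ± 0.514 FPKM with DTA-1, and Atg7, the activating enzyme of the system, 9.197 ± 1.04 FPKM with the isotype and 9.91 ± 0.209 FPKM with DTA-1. The 95% intervals of the log2 difference were -0.34 to 0.28 for Atg5, -0.27 to 0.27 for Atg12 and -0.18 to 0.38 for Atg7, so each lay within 1.5-fold of no difference.

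Sqstm1, on chromosome 11 at 50199366 to 50210827, encodes p62, the receptor that binds ubiquitinated cargo and is itself degraded by autophagy. It measured 103, 231 and 228 FPKM in isotype replicates 1, 2 and 3 and 273, 273 and 269.6 FPKM in DTA-1 replicates 1, 2 and 3. The DTA-1 libraries were nearly equal and lay above each isotype library, and isotype replicate 1 was the lowest of all 6. The means were 187 ± 72.9 FPKM with the isotype and 272 ± 2.09 FPKM with DTA-1. The log2 difference, the largest of the 34 genes, was 0.62 ± 0.28 (SE), with a limma adjusted p of 0.379, and its 95% interval ran from -0.025 to 1.27. Without isotype replicate 1 it was 0.24.

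The genes of ATG8 proteins, which mark the autophagosome and recruit receptors such as p62, spanned a wide range of levels and overlapped between groups. Gabarap was the most abundant. It measured 139, 249 and 226 FPKM in isotype replicates 1, 2 and 3 and 176, 205 and 200.3 FPKM in DTA-1 replicates 1, 2 and 3. Gabarapl2 followed at means of 74.8 ± 10.1 FPKM with the isotype and 71.7 ± 0.686 FPKM with DTA-1, then Map1lc3b, the gene of LC3B, at 48.2 ± 11.01 FPKM with the isotype and 53.03 ± 0.489 FPKM with DTA-1. Gabarapl1 was the lowest. It measured 13.6, 10.3 and 10.7 FPKM in isotype replicates 1, 2 and 3 and 20.6, 9.76 and 9.92 FPKM in DTA-1 replicates 1, 2 and 3. This order was kept in every library, with Gabarap and Gabarapl2 above Map1lc3b and Gabarapl1. Their log2 differences ran from -0.052 for Gabarapl2 to 0.16 for Map1lc3b. Gabarapl1 stood high in DTA-1 replicate 1 alone, and without that library its log2 difference turned from 0.13 to -0.20. Gabarapl1 also shares 570 exon bases with 1700101I11Rik on the opposite strand. Ctsa, Ctsb, Ctsz, Hexa, Ppt1, Lamp1, Becn1 and Map1lc3b likewise overlap an exon of another listed gene, and without knowing whether strand was used, the share of reads each received is uncertain.

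The libraries of a group differed from each other across many of these genes at once. Of the 34 tested genes, 22 had their lowest isotype value in replicate 1 (32.5% of all tested genes did), and 19 had their lowest DTA-1 value in replicate 1 (33.4% of all tested genes). For 16 of the 34 genes, replicate 1 was the lowest in both groups, against 17.9% of all tested genes. Membrane protein and lipid export genes showed this most, with means of -0.36 and -0.26 from the average of all libraries (log2 scale) in isotype and DTA-1 replicate 1, and 0.095 to 0.22 in the other 4 libraries. The ATG8 and Sqstm1 group was low in isotype replicate 1 alone, at -0.41 against 0.028 to 0.19 elsewhere. Marker lists of other cells differed along the same libraries. The mast cell and basophil list (1 of 8 tested) summed to 7.71 and 6.77 FPKM in isotype and DTA-1 replicate 1 against 11.7 to 16.7 FPKM elsewhere, and the B cell list (1 of 5 tested) to 7.23 and 6.46 FPKM against 2.93 to 3.65 FPKM. Each sum was mostly 1 gene. Kit measured 7.23 FPKM in isotype replicate 1 and 5.52 FPKM in DTA-1 replicate 1, against 11.4 to 16.6 FPKM elsewhere, and Cd79b 7.10 and 6.46 FPKM against 2.93 to 3.58 FPKM. Other mast cell and basophil markers, below the filter, did not follow Kit as a set. Mcpt8 (0.390 FPKM, isotype replicate 1) and Tpsab1 (1.19 FPKM, DTA-1 replicate 1) were found in those libraries alone. Ms4a2 (DTA-1 replicate 3) and Fcer1a (DTA-1 replicate 2) were found only elsewhere. The part of these lists in the pattern was not tested. The spread was narrower with DTA-1 for 27 of the 34 genes, as it was for 73.3% of all tested genes, with a median SD of 0.13 against 0.27 on the log2 scale. With both libraries numbered 1 left out, Npc1 had a log2 difference of 0.52, Tfe3 of 0.34, Sqstm1 of 0.24, Ctsz of 0.20 and Lgmn of -0.48, and none of the 34 genes passed after adjustment.

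**Figure D4:**
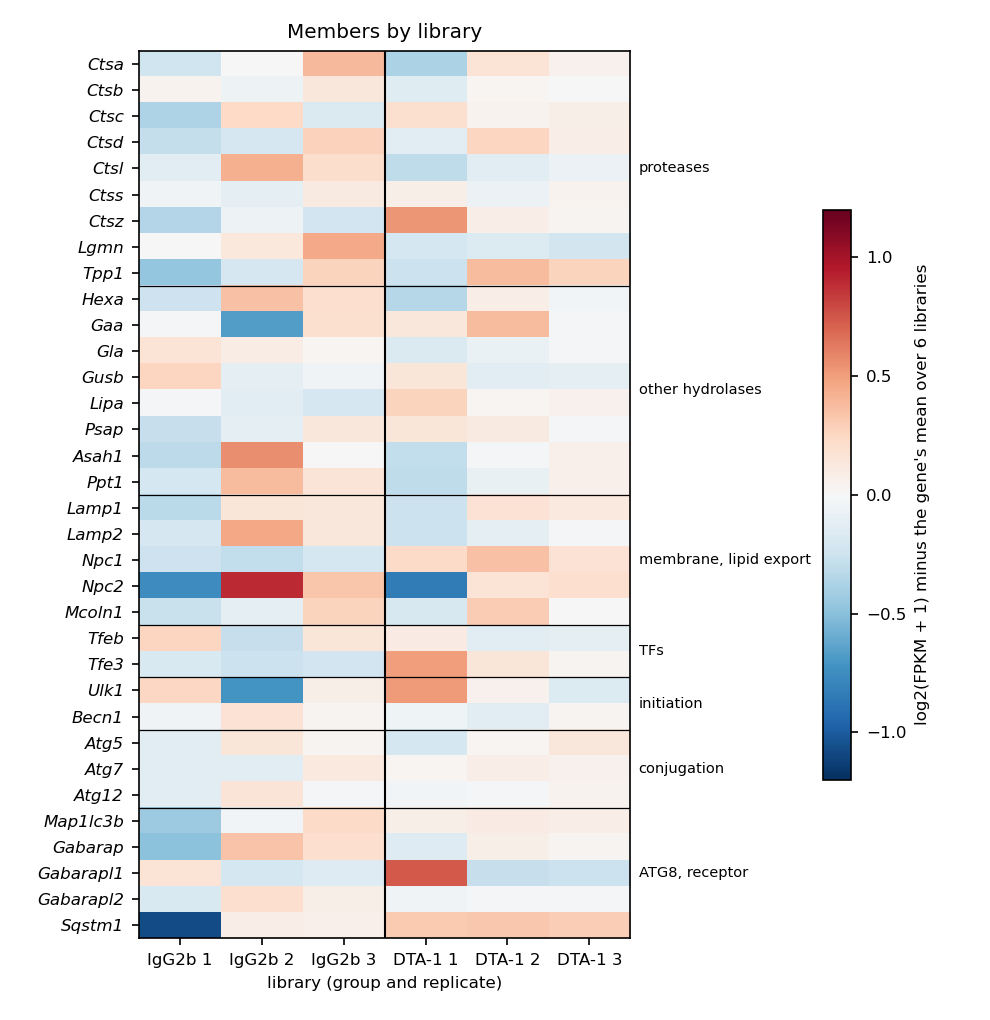
Each tested gene (rows, by role) in each library (columns) as log2(FPKM + 1) minus the gene's mean over the 6 libraries. Isotype replicate 1 and DTA-1 replicate 1 are low for Npc2, Lamp1, Asah1 and Ppt1, and isotype replicate 1 is low for Sqstm1 and Gabarap.

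A further 132 genes of the same pathway, grouped in 5 lists, were examined beside the 35. Of these, 124 were tested and none passed after adjustment (limma, Benjamini-Hochberg over all tested genes). At an unadjusted p under 0.05, 5 were higher (4.03%) and 7 lower (5.65%), below the shares of 6.22% and 7.73% of all tested genes. Their median log2 difference was 0.060.

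Subunit genes of the proton pump had a median log2 difference of 0.15 over 17 tested genes, with 14 above 0 and none at an unadjusted p under 0.05. Atp6v1e1, of the catalytic sector, had the smallest p, with 54.0 ± 7.23 FPKM with the isotype and 65.6 ± 4.06 FPKM with DTA-1 (log2 difference 0.28 ± 0.13, limma adjusted p = 0.390). Atp6ap1, an accessory subunit gene, followed with 52.9 ± 14.9 and 67.7 ± 5.68 FPKM. Isotype replicate 1 stood low for this list, with a mean log2 deviation of -0.35, where the other isotype libraries had 0.023 and 0.10. The list median was 0.070 without isotype replicate 1 and 0.23 without DTA-1 replicate 1.

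Further lysosomal enzymes lay on both sides of 0. At an unadjusted p under 0.05, 2 of 29 tested genes were higher and 5 lower, where 6.22% and 7.73% of all tested genes were. The lower count of this list was thus above the share over all tested genes. The median log2 difference was -0.0056, and it ran from -0.14 without isotype replicate 2 to 0.077 without isotype replicate 3. Arsb, an arylsulfatase gene, measured 10.2, 11.7 and 13.4 FPKM with the isotype and 3.97, 8.08 and 7.22 FPKM with DTA-1 (log2 difference -0.82 ± 0.23, limma adjusted p = 0.168). Ctsf, a cathepsin gene at a low level, measured 1.34, 1.75 and 2.47 FPKM with the isotype and 3.17, 2.85 and 3.22 FPKM with DTA-1 (log2 difference 0.53 ± 0.17, limma adjusted p = 0.207). Both separated the groups, in opposite directions. Acp2 was the other gene on the higher side.

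Further autophagy genes had 2 of 35 tested genes higher (Tollip and Calcoco1) and 2 lower (Bnip3 and Optn) at an unadjusted p under 0.05. Over all tested genes the shares were 6.22% higher and 7.73% lower. The median log2 difference of the list was 0.044. Bnip3, which encodes a mitophagy receptor of the outer mitochondrial membrane, measured 46.9, 30.8 and 29.0 FPKM with the isotype and 21.5, 17.5 and 19.3 FPKM with DTA-1 (log2 difference -0.81 ± 0.19, limma adjusted p = 0.131). Optn, which encodes the receptor optineurin, measured 2.44, 2.04 and 1.90 FPKM with the isotype and 0.595, 0.647 and 1.37 FPKM with DTA-1 (log2 difference -0.76 ± 0.18, limma adjusted p = 0.140). Both were lower in each DTA-1 library, and isotype replicate 1, the library with the highest cell cycle levels, was the highest for both. Within the DTA-1 group, replicate 1 had the highest summed cell cycle level, with the highest Bnip3 value and the lowest Optn value. A link to the cell cycle was not tested. The list median ran from -0.0067 without isotype replicate 1 to 0.073 without DTA-1 replicate 2 or 3, and was 0.0043 without DTA-1 replicate 1.

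The mTORC1 and Rag genes had 1 of 22 tested genes at an unadjusted p under 0.05, on the higher side, where 6.22% of all tested genes were. It was Tsc1, whose product restrains mTORC1, at 6.72 ± 0.390 FPKM with the isotype and 8.36 ± 0.309 FPKM with DTA-1 (log2 difference 0.28 ± 0.11, limma adjusted p = 0.326). Fnip2, a partner of folliculin, followed with 8.12 ± 1.82 and 5.58 ± 1.499 FPKM. The list median of 0.12 came to 0.034 when isotype replicate 1 was left out and to 0.071 when isotype replicate 2 was. Further membrane and sorting proteins had none of 21 tested genes at an unadjusted p under 0.05, and a median of 0.039 that ran from 0.0022 without DTA-1 replicate 2 to 0.10 without isotype replicate 3. Their smallest p belonged to Igf2r, the mannose 6-phosphate receptor gene that sorts hydrolases, with 18.5 ± 3.71 and 22.9 ± 1.96 FPKM, and to Cd68, with 3.39 ± 0.899 and 2.51 ± 0.0966 FPKM. Cd68 is a macrophage-rich lysosomal glycoprotein.

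**Figure D5:**
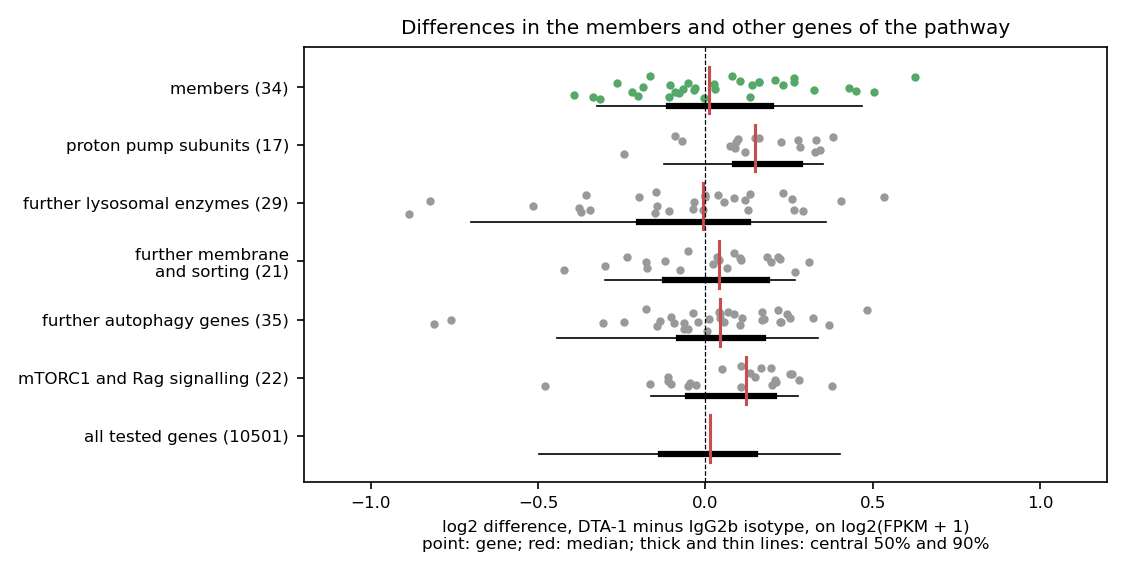
Log2 difference of each tested gene in the 34 lysosome and autophagy genes and in 5 further lists of the pathway, with the median in red and lines for the central 50% and 90% of genes. The medians run from -0.0056 to 0.15, against 0.014 over all 10501 tested genes, whose points are not drawn.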

How the data were processed

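RNA sequencing libraries of 6 ILC2 samples were compared, 3 per group. Per the submitters' processing notes, TopHat was the aligner named and mm10 the build. The authors deposited 1 table per sample of gene symbols and values, taken as FPKM. The most common low value times combined exon length was read as 1 fragment, and this reading was not tested. The library kit was directional, per the labels' protocols. Quantifier, annotation and strand setting: not given in the sources used here. Exons of 9 of the 35 genes overlap another listed gene.

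A filter kept 10501 genes that reached 1 FPKM in 3 or more libraries. Their log2(FPKM + 1) values went into limma 3.58.1 (R 4.3.3) with a model of group alone (empirical Bayes, trend and robust, 2-sided, Benjamini-Hochberg adjustment over all tested genes, threshold 0.05). The planned test for counts was not needed. The procedure was tested on simulated data. Coordinates and lengths came from GENCODE M21 (GRCm38), and promoters from RefSeq. Figures were drawn with matplotlib 3.10.9.

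The 35 genes, the lists and the alternatives were chosen with earlier results of these data known. Values in every library are given for genes at an unadjusted p under 0.05, genes without overlap between groups and the most abundant of each role. From each further list the 2 genes with the smallest p are given. Values of other genes in every library, and the choice of promoter windows to print, followed after the values were seen. Alternatives covered the pseudocount, filter, scaling, moderation, a replicate block and left-out libraries.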

Additional observations from a re-analysis of the deposited data

How the results depend on the processing

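None of the 34 tested genes passed the threshold under any of 15 alternatives, with a smallest adjusted p of 0.101 (limma, Npc1 with the replicate block). Over all tested genes, 3 higher and 1 lower passed. Without a filter 1 passed as higher, and with equal totals 2 as lower. The lower genes without overlap numbered 1 with a mean of at least 5 FPKM. With equal totals Ctss had a log2 difference of -0.0022 and Lamp1 of -0.0075. With each library left out in turn, all tested genes gave 1 to 3 higher. At an unadjusted p under 0.05 the 34 genes gave 2 to 5 higher and 0 to 6 lower (3.65% to 7.11% and 5.35% to 8.88% of all tested genes), and without overlap 5 to 9 higher and 2 to 10 lower (13.2% to 19.1% and 12% to 17%). The log2 differences that changed sign ran as follows: Ctsa -0.25 to 0.062, Ctss -0.017 to 0.090, Gusb -0.15 to 0.047, Asah1 -0.36 to 0.075, Lamp1 -0.13 to 0.16, Npc2 -0.77 to 0.053, Mcoln1 -0.054 to 0.23, Tfeb -0.25 to 0.019, Ulk1 -0.025 to 0.46, Atg5 -0.11 to 0.065, Atg12 -0.068 to 0.073, Map1lc3b -0.017 to 0.31, Gabarap -0.29 to 0.13, Gabarapl1 -0.20 to 0.31 and Gabarapl2 -0.16 to 0.035. The other 19 kept their sign under every alternative run. Leaving out both libraries numbered 1, chosen after seeing the data, gave 6 higher over all tested genes, 12 lower genes of the 34 without overlap (19.9% of all tested genes), 2 lower at an unadjusted p under 0.05 (6.12%), and log2 differences of -0.011 for Ctss, -0.011 for Map1lc3b and -0.083 for Gabarapl1. The cause was not tested. The labels do not say that like numbers pair libraries. Deviations of like-numbered libraries 1, 2 and 3 correlated at 0.39, -0.10 and -0.13 over 10501 genes, those of isotype replicate 2 and DTA-1 replicate 3 at 0.49, and those of isotype replicate 3 and DTA-1 replicate 2 at 0.38, so replicate 1 alone correlated best with its own number. A replicate block gave 59 higher and 126 lower over all tested genes, 3 lower among the further pathway genes, and 4 higher and 2 lower of the 34 at an unadjusted p under 0.05 (6.24% and 8.78% of all tested genes). With 3 libraries a group, the intervals of Npc2 and Sqstm1 reach past 2-fold, and Wipi1 rests on few fragments. The estimated number of fragments behind Tfeb depends on the transcript length taken.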

Other observations

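Genes of MHC class II antigen presentation, a process that uses lysosomal proteases to cleave the invariant chain, were measured among the markers of dendritic cells. Cd74, which encodes the invariant chain, measured 105, 102 and 149 FPKM in isotype replicates 1, 2 and 3 and 144, 199.8 and 172 FPKM in DTA-1 replicates 1, 2 and 3. Isotype replicate 3 lay above DTA-1 replicate 1, and the log2 difference was 0.54 ± 0.18 (SE), with a limma adjusted p of 0.238. H2-Aa, a class II chain gene, measured 18.3 ± 3.49 FPKM with the isotype and 22.1 ± 8.99 FPKM with DTA-1, and H2-Ab1 24.95 ± 3.87 and 28.1 ± 8.32 FPKM. DTA-1 replicate 1 was the lowest of all 6 libraries for both chain genes, at 11.8 and 18.7 FPKM. Of the other dendritic cell markers, Flt3 and Itgax lay at 0.0699 FPKM or less in every library and Cd209a was listed at 0. Xcr1 measured 3.44 ± 1.24 FPKM with the isotype and 2.17 ± 0.255 FPKM with DTA-1, with overlapping groups. Zbtb46, below the filter, measured 0.143, 0.450 and 0.302 FPKM with the isotype and 1.86, 0.752 and 0.591 FPKM with DTA-1, higher in each DTA-1 library.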
